A study of Mus musculus with 6 samples.

Results

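The proteasome is the large protease that degrades ubiquitin-tagged proteins, and its genes were followed here in fibroblasts depleted of the ubiquitin-conjugating enzyme UBE2O. Members were all genes whose platform symbol begins with Psma, Psmb, Psmc, Psmd, Psme, Psmf or Psmg and a digit. This rule found 51 of the 21946 gene symbols on the array, measured by 88 of its 45281 probes, and used no expression value. Each gene is represented by its probe with the highest mean over the arrays. The members comprised 8 genes of 20S α subunits, 8 of 20S β subunits outside the immunoproteasome, 3 of immunoproteasome β subunits, 6 of 19S ATPases, 11 of 19S non-ATPase subunits, 6 of activators and their inhibitor, and 7 of assembly chaperones. The last 2, Psmc3ip and Psme3ip1, are named after subunits that their proteins bind.

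The cells were C57BL6 mouse embryonic fibroblasts (MEFs), taken at embryonic day 13.5, in which a short hairpin RNA (shRNA) was stably expressed. Control cultures carried GFP shRNA and the others Ube2o shRNA, with 3 single-colour Illumina arrays for each. The labels give a single code, sh41, for the Ube2o cultures, so no second hairpin was compared, and 1 label field calls the reagent an siRNA. The design text describes the 3 cultures per hairpin as independent without saying whether separate embryos were used.

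The core of the proteasome is the 20S barrel, in which outer rings of α subunits gate the entrance and inner rings of β subunits hold the proteolytic sites. A 19S regulatory particle on the end of the barrel binds ubiquitin chains, removes them and unfolds the substrate with a ring of ATPases. After interferon-γ, the catalytic subunits encoded by Psmb5, Psmb6 and Psmb7 are exchanged in new particles for those encoded by Psmb8, Psmb9 and Psmb10. The ring-shaped activator PA28, made of the products of Psme1 and Psme2, is induced by the same cytokine. The set as a whole supplies peptides for MHC class I molecules.

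Among 51 proteasome genes, 5 were lower and 1 was higher with Ube2o shRNA, and 45 did not pass the test (limma, Benjamini-Hochberg adjusted p of 0.05 over all probes). Those that fell were the PA28 genes Psme1, Psme2 and Psme2b, the immunoproteasome gene Psmb10 and the 20S α gene Psma7, by 1.35 to 1.47 fold. The gene that rose was the 19S ATPase gene Psmc1, by 1.38 fold. With median scaling 5 were lower and 0 higher, beside 1037 lower and 328 higher of all 21946 genes. In the fit given first, falls made up 9.80% of the members against 3.75% of all genes, and rises 1.96% against 2.8%. Of the members, 46 lay above the inferred background on all 6 arrays, the called genes among them. As shares of these 46, falls were 10.9% and rises 2.17%, beside 7.01% and 5.85% of all genes of that kind. The median log2 change of the members was -0.012, beside 0.0026 for all genes. On the normalized scale 6 members had groups that did not overlap with Ube2o shRNA higher and 7 with it lower, which is 11.8% and 13.7% of them, beside 12.4% and 12.7% of all genes. All 13 lay above background on every array, and as shares of the 46 members of that kind they were 13.0% and 15.2%, below the 21.1% and 20% of all genes of that kind.

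**Figure D1:**
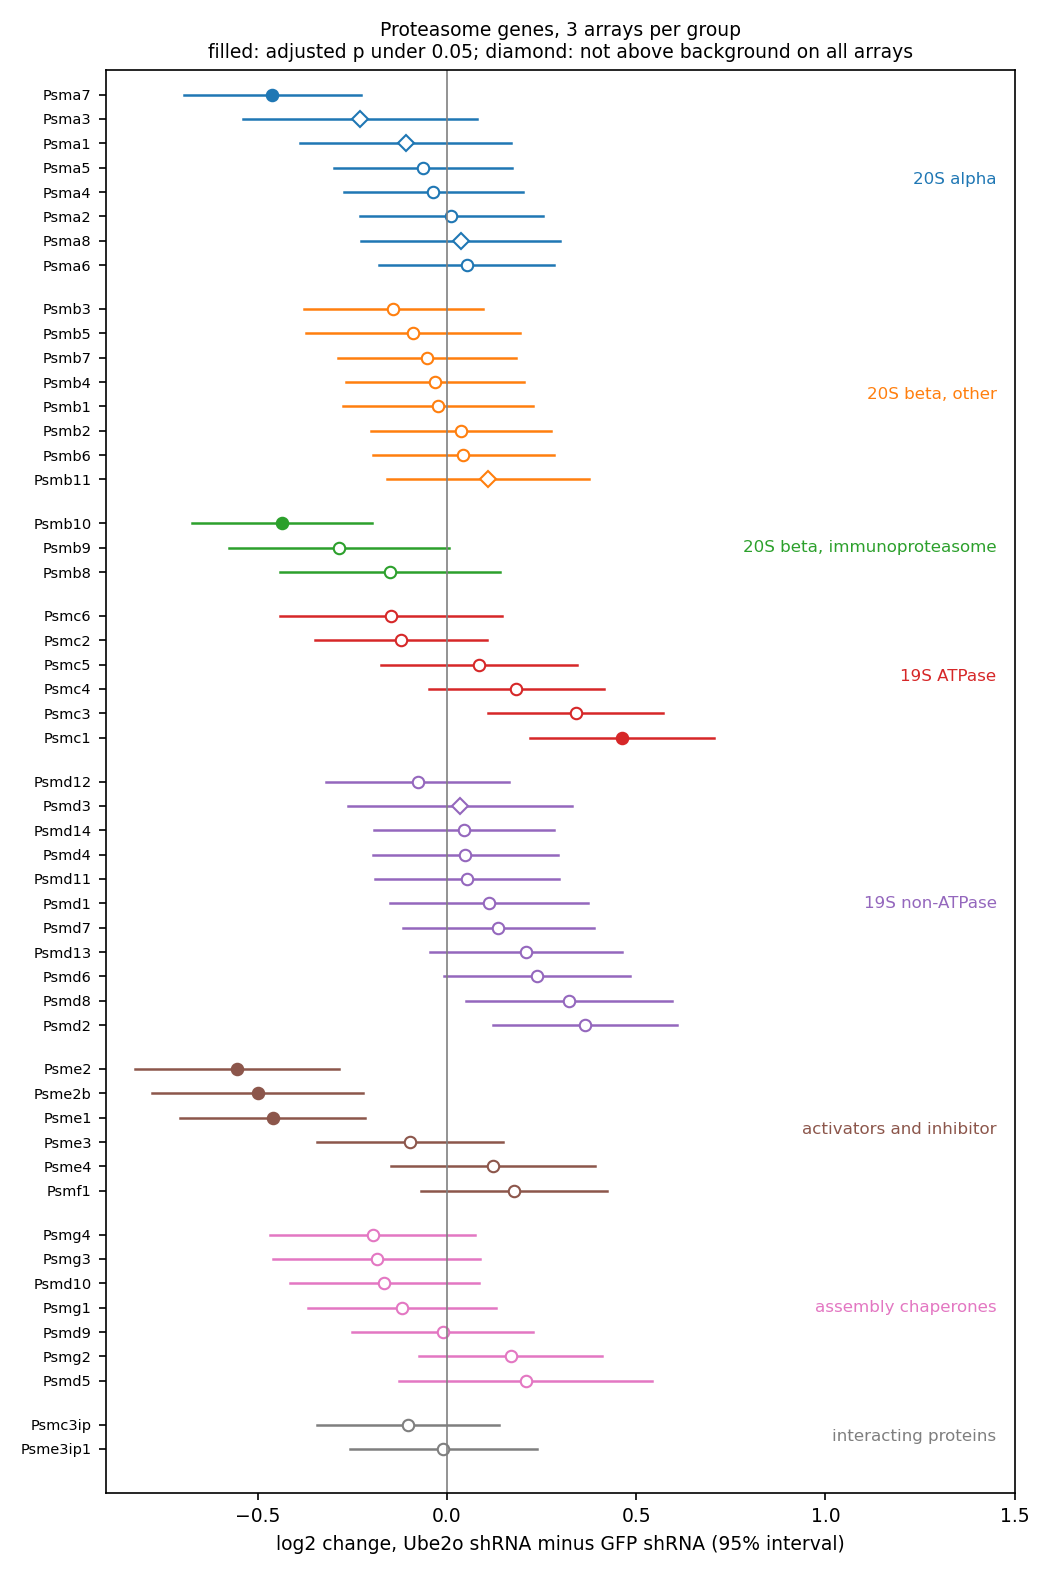
Log2 change (Ube2o shRNA minus GFP shRNA, horizontal axis) of each of the 51 proteasome genes, grouped by role, with bars for the 95% interval from limma and 3 arrays per group. Filled points passed an adjusted p of 0.05 and diamonds mark genes not above background on all 6 arrays. The 5 filled points left of 0 are Psma7, Psmb10, Psme2, Psme2b and Psme1, and the 1 filled point right of 0 is Psmc1.

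The promoter windows of the called genes were taken from RefSeq (GRCm38.p6), which had a window for 43 of the 51 members, and are shown because these members passed the threshold. Each runs from 250 bases before to 50 bases after the annotated start. They were searched on both strands for the core of the interferon-stimulated response element (GAAANNGAAA), for the gamma-activated site (TTCNNNGAA) and for the core of the antioxidant response element (TGANNNNGC), which the proteasome gene regulator NFE2L1 can bind. Capitals mark every match. Of the windows of Psme2, the one of the more downstream start is given.
Psme1, chr14:55578244-55578543, plus strand: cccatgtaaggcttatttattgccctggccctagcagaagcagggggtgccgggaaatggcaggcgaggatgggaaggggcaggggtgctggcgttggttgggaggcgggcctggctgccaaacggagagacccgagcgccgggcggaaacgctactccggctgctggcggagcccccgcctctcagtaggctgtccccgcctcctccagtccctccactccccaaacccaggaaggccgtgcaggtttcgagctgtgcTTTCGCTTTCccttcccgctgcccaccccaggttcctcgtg
Psme2, chr14:55590972-55591271, minus strand: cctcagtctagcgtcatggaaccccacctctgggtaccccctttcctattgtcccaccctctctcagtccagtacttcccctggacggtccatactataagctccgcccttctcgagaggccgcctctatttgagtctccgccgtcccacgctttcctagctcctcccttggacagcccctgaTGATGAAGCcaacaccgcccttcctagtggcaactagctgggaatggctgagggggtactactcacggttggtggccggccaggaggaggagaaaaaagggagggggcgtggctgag
Psme2b, chr11:48946361-48946660, minus strand: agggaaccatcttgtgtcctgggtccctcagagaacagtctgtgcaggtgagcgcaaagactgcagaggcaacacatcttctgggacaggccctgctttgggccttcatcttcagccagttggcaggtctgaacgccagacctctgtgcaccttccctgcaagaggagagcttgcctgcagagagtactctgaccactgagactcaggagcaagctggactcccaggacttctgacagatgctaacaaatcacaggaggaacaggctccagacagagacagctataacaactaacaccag
Psmb10, chr8:105938343-105938642, minus strand: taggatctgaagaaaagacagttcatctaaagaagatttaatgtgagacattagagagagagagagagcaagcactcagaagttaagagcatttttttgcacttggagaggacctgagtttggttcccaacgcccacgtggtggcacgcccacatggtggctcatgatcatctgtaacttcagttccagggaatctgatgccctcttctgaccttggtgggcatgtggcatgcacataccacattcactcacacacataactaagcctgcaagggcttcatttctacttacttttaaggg
Psma7, chr2:180042415-180042714, minus strand: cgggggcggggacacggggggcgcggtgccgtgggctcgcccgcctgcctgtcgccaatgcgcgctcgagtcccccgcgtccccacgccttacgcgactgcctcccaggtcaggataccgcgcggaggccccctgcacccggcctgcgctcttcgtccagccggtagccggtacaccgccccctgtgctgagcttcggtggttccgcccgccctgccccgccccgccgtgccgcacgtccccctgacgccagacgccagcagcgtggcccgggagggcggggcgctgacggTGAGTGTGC
Psmc1, chr12:100109952-100110251, plus strand: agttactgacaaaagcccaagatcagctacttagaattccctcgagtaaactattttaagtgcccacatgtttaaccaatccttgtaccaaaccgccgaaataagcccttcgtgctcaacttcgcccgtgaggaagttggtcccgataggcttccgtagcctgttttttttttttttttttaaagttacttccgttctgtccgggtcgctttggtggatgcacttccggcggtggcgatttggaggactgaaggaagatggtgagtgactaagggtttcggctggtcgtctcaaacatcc

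The capitals fall in Psme1 on an interferon-stimulated response element core, read on the reverse strand, and in Psme2 and Psma7 on an antioxidant response element core. The windows of Psme2b, Psmb10 and Psmc1 held none of the 3 motifs. An interferon-stimulated response element core occurred in 5 of the 43 members (Psme1, Psmb3, Psmd4, Psmd9 and Psmg4), or 11.6%, and in 3.99% of all genes with a window. An antioxidant response element core was found in 25 members, or 58.1%, against 45.1% of all genes, and a gamma-activated site in 3 members (Psmb8, Psmd2 and Psmg1), or 7.0%, against 9.55%. A match is a string of letters and says nothing of binding in these cells.

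Ube2o, the targeted gene, checked the labels: it was 2.74 fold lower with Ube2o shRNA (log2 change -1.45, SE 0.12, adjusted p = 3.00e-07). Its signals were 1875, 1961 and 2091 with GFP shRNA and 668, 851 and 650 with Ube2o shRNA, so the groups did not overlap. The median deposited signal of an array lay between 153 and 174, and 43.1% to 44.9% of its probes lay above background. Of 8 fibroblast markers, all lay above background on every array, 1 fell (Pdgfra, log2 change -0.76, adjusted p = 0.000324) and 7 did not pass, with values from -0.46 (Dcn) to 0.44 (Vim). None of the 7 epithelial and endothelial markers lay above background on all 6 arrays. Krt8 did on 3 control and 2 Ube2o shRNA arrays, Cdh1 on 1 and 2, and Pecam1 on 1 and 1. In bulk RNA, fewer cells of a type and less RNA per cell cannot be told apart.

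Both subunit genes of the PA28 activator fell, Psme1 by 1.38 fold and Psme2 by 1.47 fold, as did the copy Psme2b, by 1.41 fold. The deposited signals of Psme1, which encodes PA28α, were 4107, 3967 and 3854 in controls and 2531, 3060 and 2525 after Ube2o knockdown. Every Ube2o shRNA array lay below every control. Its normalized log2 signal averaged 11.87 ± 0.12 (SD, n = 3) in controls against 11.41 ± 0.095 (SD, n = 3) after knockdown. The fitted difference was -0.46 (SE 0.12, limma adjusted p = 0.0262). A second, dimmer probe of Psme1 passed as well, with a log2 change of -0.45.

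Psme2, encoding PA28β, gave 833, 745 and 756 in controls and 420, 629 and 527 with Ube2o shRNA, again without overlap. Its log2 change of -0.55 (SE 0.13, adjusted p = 0.0151) was the most negative of the 51 members. Psme2 lies close to Psme1 on chromosome 14. Psme2b, annotated as a further copy of PA28β on chromosome 11, gave 1863, 1398 and 1766 in controls and 953, 1283 and 1127 with Ube2o shRNA, with a log2 change of -0.50 (SE 0.13, adjusted p = 0.0344). The probes of Psme2 and Psme2b may read each other's RNA, which was not tested, so these may be a single fall counted as 2.

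**Figure D2:**
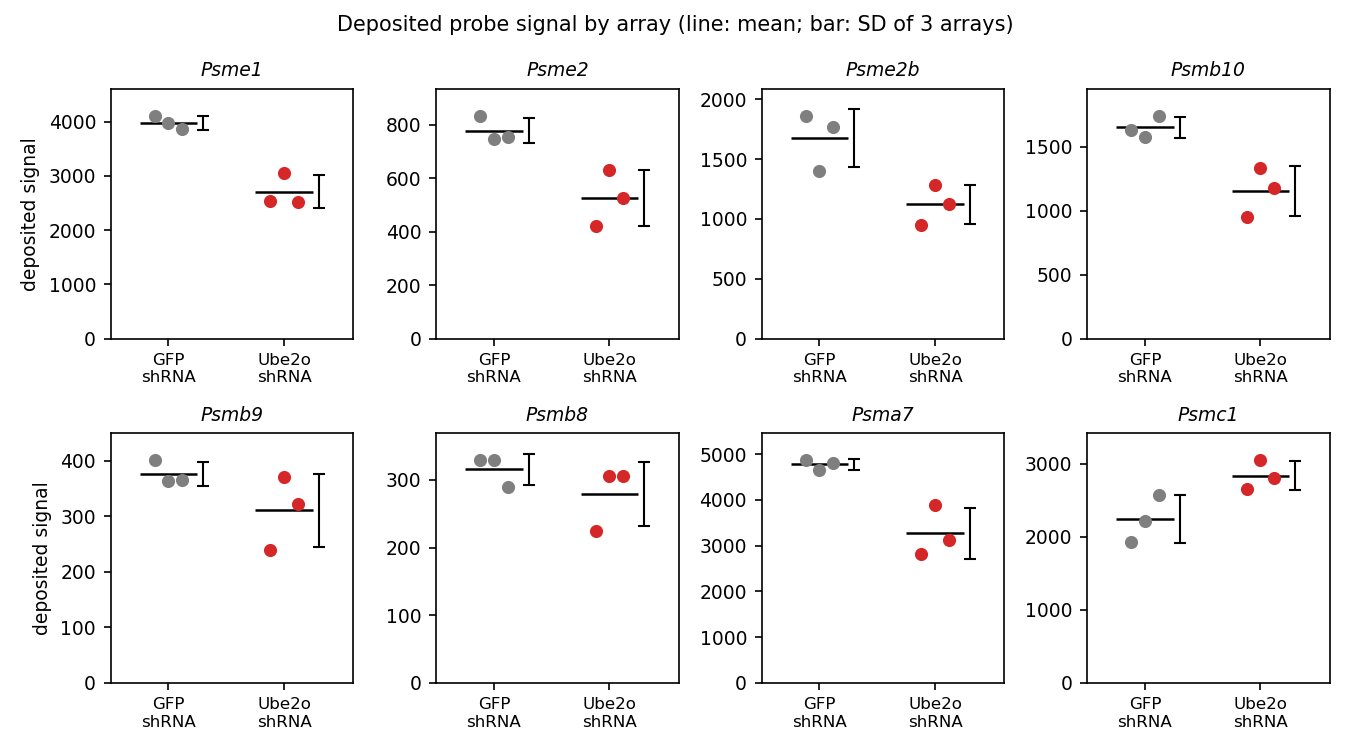
Deposited probe signal (linear scale, vertical axis from 0) on each of the 3 GFP shRNA and 3 Ube2o shRNA arrays for 8 genes, with a line for the mean and a bar for the SD. Points for Psme1, Psme2, Psme2b, Psmb10 and Psma7 are lower with Ube2o shRNA on every array, those for Psmb9 and Psmb8 overlap, and those for Psmc1 are higher.

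The remaining regulators of the 20S barrel did not pass. Psme3, encoding the nuclear activator PA28γ, had a log2 change of -0.098 with a 95% interval from -0.34 to 0.15. Psme4, encoding the single-chain activator PA200, had 0.12 (interval -0.15 to 0.39). Psmf1, encoding the inhibitor PI31, had 0.18 (interval -0.070 to 0.42). With all probes of a gene averaged, the changes of Psme4 and Psmf1 were below 0. No test compared these changes with those of Psme1 and Psme2, so the genes are not shown to differ.

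The immunoproteasome genes had negative log2 changes, of which that of Psmb10 passed. Psmb10, encoding the β2i subunit MECL-1, gave signals of 1633, 1574 and 1741 in controls and of 951, 1333 and 1175 with Ube2o shRNA. The groups were apart, and the log2 change was -0.44 (SE 0.11, adjusted p = 0.0303). The second probe of Psmb10 had -0.46 and passed too (adjusted p = 0.0273).

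Psmb9, encoding β1i, gave 402, 363 and 366 in controls and 240, 371 and 322 with Ube2o shRNA, overlapping groups with a log2 change of -0.29 (SE 0.14, adjusted p = 0.319). Psmb8, encoding β5i, gave 329, 329 and 289 against 224, 306 and 306, also overlapping, with a log2 change of -0.15 (SE 0.14, adjusted p = 0.669). Both were dim, not far above the background limits of the arrays, which were 160 to 180 signal units, where the offset added in the background correction compresses changes.

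None of the 3 constitutive counterparts passed. For Psmb5, the chymotrypsin-like subunit gene, signals were 1280, 1199 and 1188 in controls and 952, 1039 and 1236 with Ube2o shRNA, and the log2 change was -0.089 (SE 0.13, adjusted p = 0.825). The signals of Psmb6, the caspase-like subunit gene, were 6684, 5577 and 6411 in controls and 5209, 6501 and 5886 with Ube2o shRNA, with a log2 change of 0.044 (SE 0.11, adjusted p = 0.909). Those of Psmb7, the trypsin-like subunit gene, were 10194, 9137 and 9817 in controls and 7732, 9106 and 8849 with Ube2o shRNA, with a log2 change of -0.053 (SE 0.11, adjusted p = 0.882). In each of the 3 the groups overlapped on the normalized scale.

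The immunoproteasome subunit was set against its counterpart within each array for the 3 exchanged positions. The log2 ratio of Psmb10 to Psmb7 changed by -0.38 with Ube2o shRNA, and the 2 groups of arrays did not overlap. The change was -0.33 for Psmb9 to Psmb6 and -0.061 for Psmb8 to Psmb5, both with overlap. Exact permutation tests (two-sided, 3 arrays per group) gave p = 0.1, 0.2 and 0.8, or 0.3, 0.3 and 0.8 adjusted over the 3 pairs. The smallest p such a design allows is 0.1, so none could pass.

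Among the 7 constitutive β genes, Psmb1 to Psmb7, none passed, with log2 changes from -0.14 (Psmb3) to 0.044 (Psmb6). Their 95% intervals together ran from -0.38 to 0.28, so falls or rises within that range are not excluded. Psmb11, the β5t gene of the thymus, lay above background on 1 of 6 arrays and has no usable fold. Psmb3, encoding β3, had the smallest p of these genes (adjusted p = 0.605), with signals of 8162, 7359 and 7634 in controls and 5885, 6943 and 6300 with Ube2o shRNA. Its groups were apart, by a log2 change of -0.14 (SE 0.11).

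Of the 8 α genes, Psma7 fell and the others did not pass. Psma7, encoding α4, gave 4873, 4644 and 4809 in controls and 2807, 3879 and 3120 with Ube2o shRNA, and the groups did not overlap. Its log2 change was -0.46 (SE 0.11, adjusted p = 0.0199), and that of its second probe was -0.40 (adjusted p = 0.0613). Psma2, Psma4, Psma5 and Psma6 had changes from -0.063 to 0.052, with intervals that together ran from -0.30 to 0.28. Of these, Psma6 was read at only 170 to 197 signal units. Psma1 and the testis gene Psma8 lay above background on no array and Psma3 on 1 control array, so no fold is given for them.

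In the 19S particle, most members had small positive log2 changes and 1 passed. Psmc1, encoding the ATPase Rpt2, gave 1923, 2217 and 2580 in controls and 2656, 3055 and 2807 with Ube2o shRNA, and every Ube2o shRNA array lay above every control. The normalized log2 difference was 0.46 (SE 0.12, adjusted p = 0.0241). Psmc1 has 1 probe and lies on chromosome 12, where the median log2 change of 297 genes above background was 0.29 and 86.9% of them had positive changes. With the median of each chromosome subtracted, Psmc1 had a log2 change of 0.18 and an adjusted p of 0.474, and Psme2b of -0.42 and 0.0843.

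Psmc3, encoding the ATPase Rpt5, gave 3165, 3459 and 3706 in controls and 3484, 4479 and 4150 with Ube2o shRNA, overlapping as deposited and apart once normalized (log2 change 0.34, SE 0.11, adjusted p = 0.0930). Psmc4 had 0.18 and Psmc5 0.084, while Psmc2 and Psmc6 had -0.12 and -0.15, none past the threshold. Rpt subunits form 1 ring, and their changes thus ranged from -0.15 to 0.46.

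Among the 11 non-ATPase genes, the smallest p was that of Psmd2, which encodes the scaffold Rpn1 (log2 change 0.37, SE 0.12, adjusted p = 0.0852). Its signals were 220, 212 and 236 in controls and 230, 288 and 237 with Ube2o shRNA, low in both groups and overlapping as deposited, though apart once normalized. The log2 change was 0.32 for Psmd8 (Rpn12), 0.24 for Psmd6 (Rpn7), 0.21 for Psmd13 (Rpn9) and 0.14 for Psmd7 (Rpn8). The genes of the ubiquitin receptor Psmd4 (Rpn10) and the deubiquitinase Psmd14 (Rpn11) had 0.048 and 0.045. Psmd1 (Rpn2) had 0.11, Psmd11 (Rpn6) 0.053 and Psmd12 (Rpn5) -0.078, and Psmd3 lay above background on 1 of 6 arrays.

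Over the 17 genes of the 19S particle the median log2 change was 0.11, and 14 were above 0, or 82.4% where all genes have 50.5%. With median scaling the median was 0.023 and 10 were above 0, or 58.8%. Of all genes 45.7% were then above 0, and of genes above background on all 6 arrays 38.9%. The median of all 51 proteasome genes was -0.10 with that scaling, beside -0.019 for all genes and -0.067 for genes above background on all 6 arrays. On single arrays, the median of the ATPase genes relative to each gene's mean was -0.015, -0.13 and -0.044 in controls and 0.13, 0.13 and 0.021 with Ube2o shRNA. That of the non-ATPase genes was -0.049, -0.028 and 0.0078 against -0.017, 0.095 and 0.0049, so the groups of arrays overlapped.

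**Figure D3:**
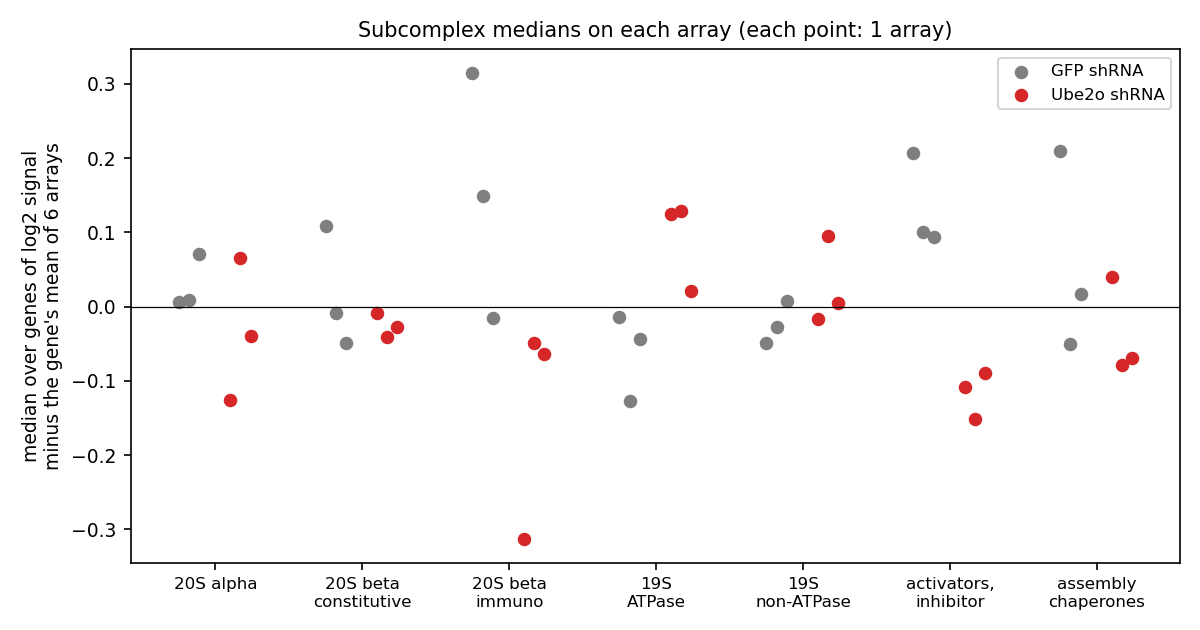
Median over the genes of each subcomplex of the normalized log2 signal minus the gene's mean over 6 arrays (vertical axis), with 1 point per array and colours for the 2 shRNAs. The activators and inhibitor lie at 0.093 to 0.21 in controls and at -0.15 to -0.089 with Ube2o shRNA. The 2 groups of points also lie apart for the 19S ATPases and the immunoproteasome genes and overlap for the 19S non-ATPase genes and the assembly chaperones.

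None of the 7 assembly chaperone genes passed. Psmg1 and Psmg2 encode the partners that start the α ring, and they had log2 changes of -0.12 and 0.17. Psmg3 and Psmg4, whose products act next on the same ring, had -0.19 and -0.20. Psmg4 had the smallest p of the group (adjusted p = 0.506), with signals of 222, 203 and 224 in controls and 186, 212 and 176 with Ube2o shRNA, overlapping. The chaperones of the 19S base, Psmd5, Psmd9 and Psmd10 (gankyrin), had 0.21, -0.012 and -0.16. Psmd10 lies on chromosome X, where the median log2 change of 283 genes above background was -0.18. The median of the 7 chaperone genes was -0.12, and 0.018 with the median of each chromosome subtracted. Psmc3ip, a recombination factor of meiosis, had -0.10 and Psme3ip1 had -0.0093.

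Of the 51 genes, 28 had several probes, and of 37 dimmer probes 3 passed. Of the 37, 27 lay above background on all 6 arrays. The share of dimmer probes that passed in the whole series was not computed. Of all genes above background on all 6 arrays, 5.85% were higher and 7.01% lower. The 3 probes were the second probes of Psme1 and Psmb10, both lower like the brightest, and a probe of Psmd7 with a log2 change of 0.44 (adjusted p = 0.0433), where the brightest probe of Psmd7 had 0.14 (adjusted p = 0.655) and the third had -0.12. This probe of Psmd7 is named for its value.

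Genes that work with the proteasome were followed from a list of 33, of which 26 were measured. Of these, 0 rose, 1 fell and 25 did not pass, 7 had an unadjusted p under 0.05 (Irf1 among them), and the median log2 change was -0.078. The fall is 3.85% of the list, beside 3.75% of all genes, and an unadjusted p under 0.05 was found for 19.3% of all genes and for 32.0% of those above background on every array. The gene that fell was Irf1, a transcription factor that induces immunoproteasome genes, with signals of 2933, 3442 and 3654 in controls and of 2044, 2558 and 2273 with Ube2o shRNA. The groups did not overlap, and the log2 change was -0.45 (SE 0.11, adjusted p = 0.0232).

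The peptide transporter genes Tap1 and Tap2, neighbours of Psmb9 and Psmb8, had log2 changes of 0.066 and -0.27, and B2m, the light chain of MHC class I, had -0.065. Nfe2l1, the transcription factor that restores proteasome gene expression after inhibition, had -0.040, and its relative Nfe2l2 had -0.090. The maturation factor gene Pomp had -0.21, the segregase gene Vcp 0.27 and the proteasome deubiquitinase genes Usp14 and Uchl5 had 0.17 and -0.26, none of them past the threshold. Genes above background had a median log2 change of -0.098 on chromosome 5, which holds Pomp, and of 0.16 on chromosome 4, which holds Vcp.

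Of 10 measured markers of macrophages and leukocytes, 3 fell, 0 rose and 7 did not pass, beside 3.75% and 2.8% of all genes. Those that fell were Cd74, Aif1 and Cd14, with log2 changes of -2.17, -0.73 and -0.57. The T cell marker Cd3e had 0.42 (adjusted p = 0.0519) with groups apart, and the median of the list was -0.037, with 4 changes above 0. The summed deposited signal of the list was 3040 to 3367 in controls and 2116 to 2521 with Ube2o shRNA. In this sum Cd74 alone gave 756, 698 and 798 in controls and 198, 231 and 218 with Ube2o shRNA. Of the list, Ptprc, Adgre1, Cd68 and Itgam lay above background on 0 of 6 arrays. Csf1r did on 2 control and 2 Ube2o shRNA arrays, and 5 markers, Lyz2 (log2 change -0.19) among them, on all 6. The part of such cells, or of the lower Pdgfra, in the fall of Psme1, Psme2 and Psmb10 was not tested.

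The 6 called genes kept their sign under every alternative processing tried, with 0 past the threshold at a background offset of 16 (adjusted p from 0.148 to 0.214) and 6 with no background correction or in the deposited log2 values. Without the array of GFP shRNA replicate 1 none of the 6 passed, without either Ube2o shRNA replicate 1 or Ube2o shRNA replicate 3 only 1 did, and without GFP shRNA replicate 2, Ube2o shRNA replicate 2 or GFP shRNA replicate 3 there were 2, 3 and 4.

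**Figure D4:**
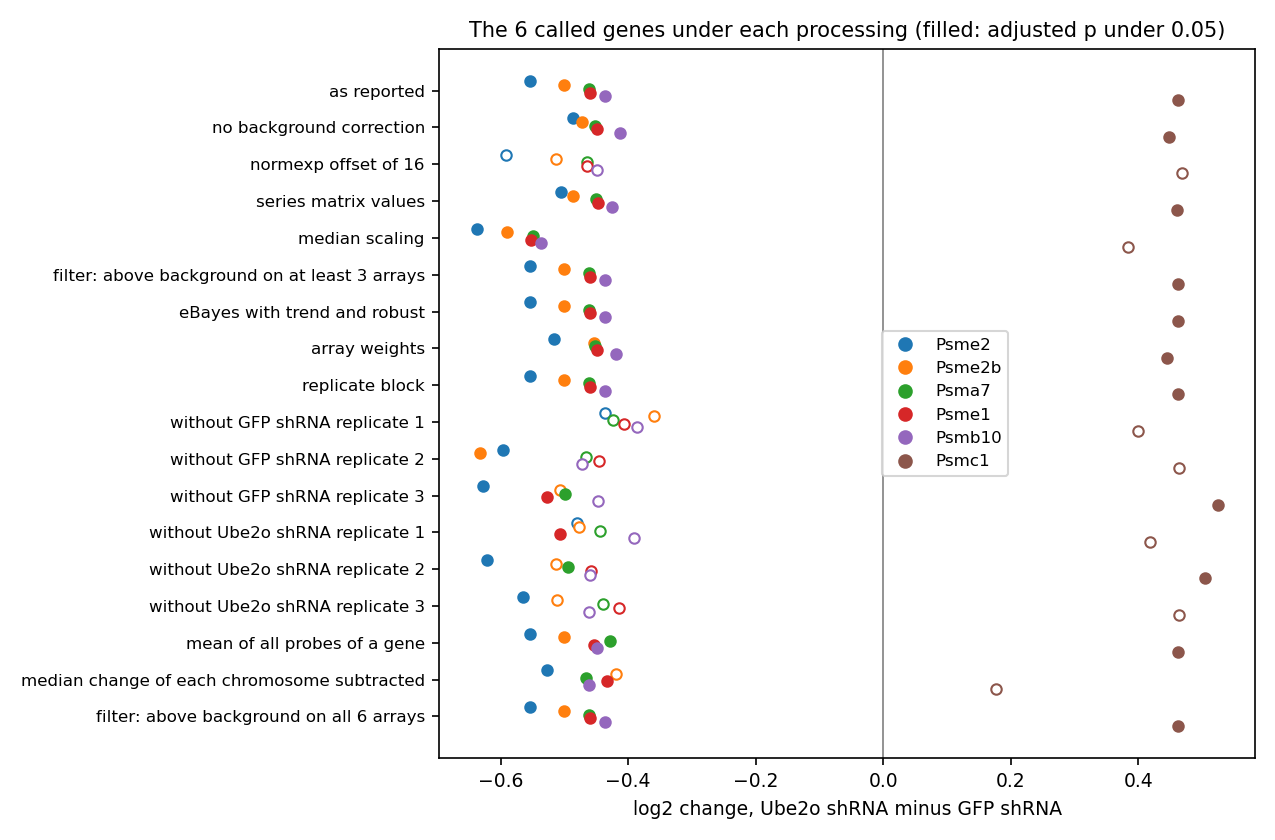
Log2 change (horizontal axis) of the 6 called genes under each processing (rows), filled where the adjusted p was under 0.05. The 5 genes that fell stay left of 0 and Psmc1 right of 0 in every row, and all points are open at the offset of 16 and without GFP shRNA replicate 1.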

How the data were processed

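Linear intensity per probe was deposited for the 6 arrays, with neither detection p-values nor control probes, beside a series matrix of log2 values. The log2 values as deposited have the same quantiles on all arrays, with a median of 7.386, and keep the probe order of the intensity (Spearman correlation at least 0.999999). Per the labels' protocols, biotinylated cRNA was made with the Illumina TotalPrep kit. The labels and file headers used here name no scanner software, summarisation or background correction.

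The intensity was background corrected by normexp (saddle, offset 50), quantile normalized and put on the log2 scale. Moderated two-sided tests came from lmFit and eBayes of limma 3.58.1 (R 4.3.3), and p-values of all 45281 probes were adjusted together by Benjamini-Hochberg. A probe was above background on an array with p under 0.05 against the mode of that array's log2 signal and the spread below it. Probe symbols come from the platform annotation, updated for genes outside the family through RefSeq (GRCm38.p6): 35784 probes had 1 symbol. Members and gene lists were chosen with earlier results of these data known. Genes given with the signal of every array were called members, the exchanged β subunits, the member with the smallest p in groups without a call, Ube2o and the called partner gene. Psmc3 was added after its values were seen. Alternatives covered background, scaling, filters, moderation, array weights, a replicate block, single arrays left out and averaged probes. The fit was tested on simulated normalized values with a common spread for all probes. The planted changes were larger than those of the called members, so it does not bear on their calls. The p-values reflect array-to-array spread, possibly technical, and in the limma tests that spread is moderated across all probes. Precision is limited by the number of arrays.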

Additional observations from a re-analysis of the deposited data

How the results depend on the processing

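The median log2 change of the 51 genes was -0.100 with median scaling, and -0.028 to 0.00018 when 1 array was left out. With median scaling it was -0.019 for all genes and -0.067 for genes above background on all 6 arrays. Of the 51 genes, 3 rose with no background correction, in the series matrix values and with probes filtered on at least 3 arrays or, chosen after seeing the data, on all 6, and 2 with moderation by trend or with averaged probes. Of all 21946 genes, 1255, 1240, 1021 and 612 rose with no background correction, in the series matrix values, with trend and with averaged probes. With the filters on 3 and 6 arrays 1041 of 11456 and 1185 of 9761 genes rose. None rose with median scaling or, also chosen after seeing the data, with chromosome medians subtracted, where 328 and 458 of all genes rose. At the offset of 16, 0 members passed, 0 higher and 0 lower, beside 107 higher and 282 lower of all genes. When 1 array was left out, 0 to 4 passed, 0 or 1 higher and 0 to 3 lower. Of all genes, 373 to 435 were then higher and 569 to 643 lower. The partner genes past the threshold numbered 7 with no background correction, 5 in the series matrix values, 3 and 4 with the filters on 3 and 6 arrays, 4 with trend, 0 at the offset of 16 or with chromosome medians subtracted, and 0 to 1 when an array was left out. In the first 5 of these settings 2, 1, 1, 1 and 2 partner genes were higher and 5, 4, 2, 3 and 2 lower. Of all genes, 1336, 1324, 1217, 1190 and 1155 were lower there, beside the rises given above. The number called in the whole series thus moved with the setting too. The cause of these shifts was not tested. Log2 changes near 0 changed sign for Psmb6 (-0.067 with median scaling and -0.0094 to 0.11 with an array left out), Psmb5 (-0.20 to 0.031), and Psmb7 (0.010 with averaged probes), as did the ratio of Psmb8 to Psmb5 (-0.19 to 0.050). Other members changed sign as well, among them Psme4 and Psmf1, which were below 0 with averaged probes. Ube2o fell under all 17 alternatives (log2 change -1.54 to -1.35). With the replicate block 6 members passed, but the numbers did not pair the arrays: deviations correlated at 0.026, -0.12 and 0.080, and 1 of 6 arrays correlated best with its own number. The 3 arrays per group limit the precision to the intervals given, and dim probes carry compressed changes.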
